A study of Mus musculus with 24 samples.

Results

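The mono-cultured control PSC of both co-culture models at 24 h were compared with each other. These are 6 of the 24 libraries of the series, 3 labelled as inverse control and 3 as standard control, and they were chosen by their labels alone. All 6 hold poly(A) RNA of pancreatic stellate cells (PSC) from wild-type C57BL/6J mice aged 7 to 10 weeks, grown without cancer cells on a porous culture insert. Each isolation pooled 4 to 10 pancreata, so a library stands for a pool of animals. In the co-cultured groups of the series, PSC shared the insert system with KPC cells, a mouse pancreatic cancer cell line. In the standard model KPC cells lay on the bottom of the well, and in the inverse model on the underside of the insert membrane. Standard control PSC were seeded in their growth medium, low-glucose DMEM with F12, and changed to Advanced DMEM/F-12 at time zero, 24 h after seeding. Inverse control PSC were seeded in Advanced DMEM/F-12 from the start and their medium was not changed. Libraries were made from 450 ng of total RNA in the standard model and from 120 ng in the inverse model. Model, medium history, RNA input and any difference between isolations cannot be told apart in this comparison.

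PSC are the fibroblast-like cells of the pancreas. In the quiescent state they store vitamin A in lipid droplets, and on plastic they become activated, losing the droplets and turning into contractile, dividing myofibroblasts that express smooth muscle actin (Acta2) and lay down collagen. Fibroblasts of this kind can also take up an inflammatory state with secretion of cytokines, chemokines and complement. Control PSC set the baseline from which a response to cancer cells is read, so the state of the controls enters every such comparison.

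The libraries were checked against the markers of their labelled cell type. Col1a1, a fibrillar collagen chain, reached 5877 to 9305 FPKM (fragments scaled to transcript length and library size) in the 6 libraries, Vim (vimentin) 814 to 1994 FPKM and Acta2 824 to 5963 FPKM. Des (desmin) lay at 49.2 to 71.3 FPKM. Gfap, a glial filament used as a stellate cell marker, reached at most 0.24 FPKM in the inverse libraries and listed at 0 in the 3 standard libraries. Lrat, the vitamin A esterifying enzyme of quiescent stellate cells, was listed at 0 in all 6. Epithelial Krt19 reached at most 0.90 FPKM, and Epcam and Cdh1 under 0.13 FPKM. Of the 10 epithelial and ductal markers 8 stayed under 1 FPKM in every library, the exceptions being Sox9, at 3.55 to 6.32 FPKM, and Muc1, at 0.41 to 1.66 FPKM. The 8 mesothelial markers summed to 20.49 to 24.9 FPKM in the inverse and to 14.3, 49.97 and 34.9 FPKM in the standard libraries, most of it Wt1 at 12.7 to 37.5 FPKM. Lrrn4, another of them, was listed at 0 in the inverse libraries and in standard replicate 1, and at 3.69 and 1.93 FPKM in standard replicates 2 and 3. Of the 10 acinar markers 9 stayed under 1 FPKM in every library, with Cela1 as the exception. It had 9.13, 11.9 and 15.1 FPKM in inverse and 5.78, 8.28 and 6.62 FPKM in standard controls, without overlap and with a log2 difference of 0.75 ± 0.23 (SE) that did not pass the adjustment. No islet, lymphocyte, mast cell or erythroid marker reached 1 FPKM. In bulk RNA, fewer cells of a type and less RNA per cell cannot be told apart.

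The depth recovered from the FPKM steps was 15932737 to 24798761 counted fragments in the inverse and 17567252 to 22742283 in the standard libraries. The groups were compared over the 12903 genes with over 1 FPKM in at least 3 of the 6 libraries. The 3 inverse libraries resembled each other closely, with Pearson correlations of log2(FPKM + 1) between 0.992 and 0.994. The 3 standard libraries did not, since replicates 1 and 2 correlated at only 0.966, below each of the 9 pairs across the sets, which ranged from 0.983 to 0.992. The median SD of a gene on the log2(FPKM + 0.5) scale was 0.155 over the inverse and 0.314 over the standard libraries, and the standard SD was the larger for 76.8% of genes. A range of more than 1 log2 unit was found for 26.9% of genes among standard libraries and for 5.32% among inverse libraries.

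**Figure D1:**
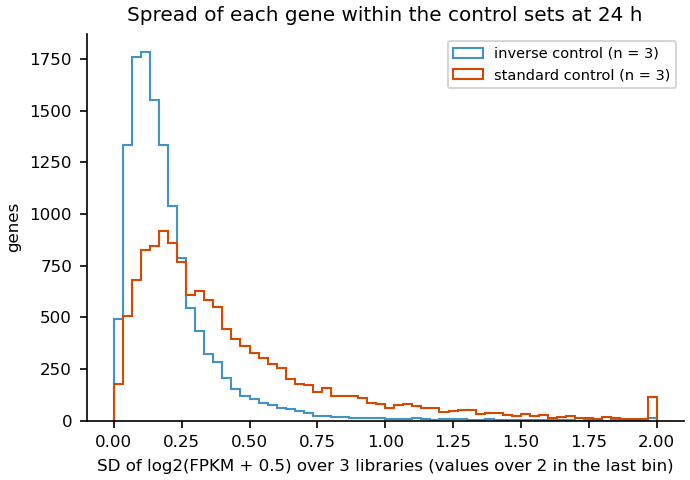
Histogram of the SD of log2(FPKM + 0.5) over 3 libraries for 12903 genes, in inverse (blue) and standard (orange) control PSC at 24 h. The inverse distribution is narrow around its median of 0.155, while the standard one has a median of 0.314 and a long tail.

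The spread of the standard libraries ran mainly along 1 direction. The first principal component held 61.3% of the variance and placed standard replicate 1 at a score of 68.8, replicate 3 at -22.8 and replicate 2 at -48.8. The inverse libraries lay between them, at 3.55, 2.28 and -3.04. Standard replicate 1 exceeded every other library by more than 1 log2 unit in 102 genes and was below every other by as much in 637 genes, against 23 above and 5 below for standard replicate 3 and, in the inverse libraries, 2 to 12 above and 8 to 16 below. Standard replicate 2 was the next most distant, with 139 genes above and 134 below. For 40.4% of genes, all 3 inverse values fell between those of standard replicates 1 and 2. Since replicates 1 and 2 lay at opposite ends, list medians that turn or move far without 1 of them are given without it.

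**Figure D2:**
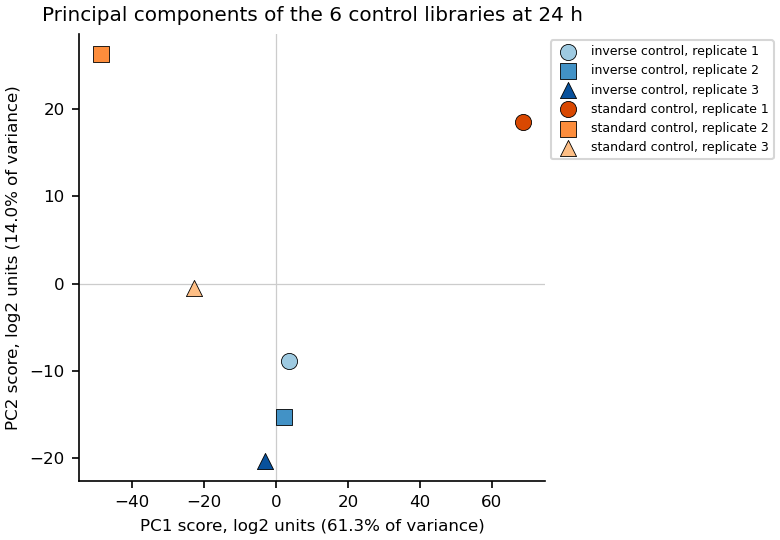
Scores of the 6 control libraries at 24 h on the first and second principal components of log2(FPKM + 0.5), with inverse libraries in blue and standard libraries in orange. The standard libraries span the first component from -48.8 to 68.8, and the inverse libraries sit near 0 on it.

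The main question was which genes differ between the control sets. With all 6 libraries, 0 of 12903 genes (0%) passed an adjusted p of 0.05 in limma's moderated test, and the smallest adjusted p was 0.289. At an unadjusted p under 0.05 there were 225 genes, 1.74% of those tested, with 162 of them higher and 63 lower in inverse control PSC. The test of limma-voom on fragments recovered from the FPKM also called 0 of 12268 genes, with 190 at an unadjusted p under 0.05. The median log2 difference, inverse minus standard, was 0.06 over all genes, and 139 genes differed by more than 1 log2 unit. That median was 0.013 without standard replicate 1, 0.005 with median-ratio scaling and 0.004 with quantile normalization. The 95% confidence interval of the difference lay within 1 log2 unit on either side of 0 for 74.6% of genes, and for the others a larger difference is not excluded. Values of the inverse set all exceeded those of the standard set in 600 genes (4.65%), and the reverse held in 232 genes (1.8%). With 3 against 3 libraries an exact rank test cannot reach a two-sided p under 0.1, so lack of overlap alone decides little.

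Without standard replicate 1, 58 of 12761 genes (0.455%) passed an adjusted p of 0.05, 35 of them higher and 23 lower in inverse PSC. In this fit 2 standard libraries stand against 3 inverse libraries. For 47 of the 58 genes, the replicate left out lay on the other side of the inverse mean from the remaining standard libraries, and for 11 it lay on the same side. With all 6 libraries, 10 of the 58 genes had groups that did not overlap. Over all genes tested this held for 4.65% with inverse higher and 1.8% with inverse lower. The 58 were picked because standard replicates 2 and 3 lay apart from the inverse libraries, so a larger share was set in advance.

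Of the 8 genes with the smallest p among those higher in inverse controls, Ndufa4l2 and Pdk1 act in energy metabolism. Ndufa4l2 (ENSMUSG00000040280, chr10:127514967-127517154, plus strand, GRCm38) encodes a hypoxia-inducible protein of the mitochondrial respiratory chain. Its FPKM were 12.01, 12.5 and 21.1 in inverse and 4.87, 4.30 and 3.19 in standard controls. All inverse libraries were therefore above all standard libraries, by 1.74 on the log2 scale (95% interval 1.09 to 2.38), though the difference did not pass the adjustment with all 6 libraries. It did so without standard replicate 1, at a log2 difference of 1.85 and an adjusted p of 0.043 by limma. Cox4i2 (ENSMUSG00000009876, chr2:152754173-152765037, plus strand), the hypoxia-inducible isoform of a cytochrome c oxidase subunit, had 7.82, 7.95 and 7.28 FPKM in inverse and 4.82, 1.48 and 1.07 in standard controls. Its groups did not overlap either, with a log2 difference of 1.68 (0.61 to 2.75), and of 2.21 without standard replicate 1 (adjusted p = 0.0376, limma).

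Pdk1, the kinase that keeps pyruvate out of the mitochondrial citrate cycle, also did not overlap. It had 19.5, 18.6 and 15.5 FPKM in inverse and 10.4, 11.5 and 11.4 FPKM in standard controls, a log2 difference of 0.65 ± 0.15 (SE). Slc16a3 (ENSMUSG00000025161, chr11:120948480-120960868), the lactate exporter MCT4, had 69.4, 61.4 and 57.3 FPKM in inverse controls. Its standard values were 76.3, 11.5 and 17.9 FPKM, so that replicate 1 was the highest of all 6 libraries while replicates 2 and 3 were far below the inverse ones. The log2 difference of Slc16a3 was 1.29 (-0.21 to 2.80) with all libraries and 2.08 without standard replicate 1 (adjusted p = 0.0376, limma).

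Ndufa4l2, Pdk1 and Slc16a3 belong to the list of glycolytic enzymes and targets of HIF1, the transcription factor stabilised at low oxygen, while Cox4i2 is no member and was chosen after its values were seen. All 29 list members were tested and none was called with all 6 libraries. At an unadjusted p under 0.05 there were 5 of 29, beside 1.74% of all genes, and 7 did not overlap with inverse higher, beside 4.65% of all genes, and 1 (Slc2a3) with inverse lower, beside 1.8%. Of the 29, 25 had a positive log2 difference, and the median was 0.32 beside 0.06 over all genes. Standard replicate 1 was the highest library in 14 of the 29 members and the lowest in 6. Eno1 (enolase) had 1181, 1141 and 952 FPKM in inverse and 1609, 443 and 528 FPKM in standard controls. Ldha, which turns pyruvate into lactate, had 943, 983 and 836 FPKM in inverse and 1156, 524 and 588 FPKM in standard controls. In 12 of 29 members all inverse values lay below standard replicate 1 and above replicates 2 and 3, as they did in 12.8% of all genes. Without standard replicate 1, 6 members of the list were called (Ndufa4l2, Slc16a3, Eno1, Pgk1, Pgam1 and Pfkl), all higher in inverse PSC, beside 0.455% of all genes in that fit. The list's median was 0.41 without standard replicate 1, 0.24 without replicate 2 and 0.25 without replicate 3. Bnip3, a mitophagy receptor, had 65.1, 63.3 and 76.0 FPKM against 38.0, 47.5 and 57.4 FPKM without overlap. Gapdh, read at 12.6 to 37.0 FPKM, shares its sequence with many processed pseudogenes, and its level is uncertain.

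HIF1 binds DNA at sites around the core ACGTG. The promoters of 3 members called without standard replicate 1 are shown because their windows hold this core. They run from 250 bases before to 50 bases after a RefSeq transcript start (build GRCm38.p6), with each ACGTG or its reverse complement CACGT in capitals.
Slc16a3, chr11:120948817-120949116, plus strand: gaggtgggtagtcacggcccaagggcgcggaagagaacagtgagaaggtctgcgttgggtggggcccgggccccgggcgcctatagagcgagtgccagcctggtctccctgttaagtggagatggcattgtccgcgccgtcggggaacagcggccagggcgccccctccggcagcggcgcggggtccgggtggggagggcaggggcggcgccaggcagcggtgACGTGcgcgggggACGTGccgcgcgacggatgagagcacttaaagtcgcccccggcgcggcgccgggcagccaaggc
Pgk1, chrX:106186850-106187149, plus strand: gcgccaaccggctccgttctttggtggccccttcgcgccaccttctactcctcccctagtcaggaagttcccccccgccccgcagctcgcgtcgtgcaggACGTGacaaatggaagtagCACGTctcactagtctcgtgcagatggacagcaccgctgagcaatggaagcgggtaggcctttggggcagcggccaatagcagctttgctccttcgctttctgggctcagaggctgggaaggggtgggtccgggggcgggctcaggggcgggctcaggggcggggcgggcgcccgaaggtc
Pgam1, chr19:41911621-41911920, plus strand: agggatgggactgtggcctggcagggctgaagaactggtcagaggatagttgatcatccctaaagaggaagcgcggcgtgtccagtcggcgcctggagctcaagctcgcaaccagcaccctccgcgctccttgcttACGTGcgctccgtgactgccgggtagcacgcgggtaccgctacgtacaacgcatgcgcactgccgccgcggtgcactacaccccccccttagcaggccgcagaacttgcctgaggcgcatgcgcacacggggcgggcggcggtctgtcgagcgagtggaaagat
Searched on both strands, ACGTG was found in 20 of the 39 windows of the list (51.3%), which stand for 26 of its 29 genes, and in 19.6% of all 32851 windows. The list was built to hold HIF1 targets, so a higher share was set in advance and is no result of these samples. Windows of the same gene can overlap and share a match, as in Aldoa. The windows of Pdk1, Pfkl and Eno1 held none. A match describes the letters only and is no measured binding site.

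The contractile genes of myofibroblasts were ordered alike in the standard set. All 21 list members were highest in standard replicate 1, and in 20 of them all 3 inverse values lay below that replicate and above replicates 2 and 3. Acta2 (ENSMUSG00000035783, chr19:34241090-34255590, minus strand), the smooth muscle actin that defines activated PSC, had 2835, 2790 and 2922 FPKM in inverse controls. In standard controls it had 5963, 824 and 1509 FPKM, so the standard values lay on both sides of a tight inverse group. The log2 difference of Acta2 was 0.55 (-1.05 to 2.14), with 1.35 without standard replicate 1 and -0.075 without standard replicate 2. Cnn1 (calponin 1), an actin-binding regulator of smooth muscle contraction, had 563, 597 and 609 FPKM against 1064, 167 and 291 FPKM. Myh11, the smooth muscle myosin heavy chain, had 163, 149 and 192 FPKM against 238, 44.1 and 87.2 FPKM. Tagln (transgelin) had 28.1, 35.2 and 37.7 FPKM against 56.3, 13.4 and 14.8 FPKM, but 67.9% of its exonic bases are shared with genes of the opposite strand and the counting was unstranded. None of the 21 was called with all libraries, and the median log2 difference was 0.28. Without standard replicate 2 that median was 0.01. Without standard replicate 1 it was 0.74, and Cnn1, Tagln and Csrp1 were called, all higher in inverse PSC, beside 0.455% of all genes. The 8 markers of pericytes and vascular smooth muscle, other contractile cells, summed to 264 to 380 FPKM in the inverse libraries. In the standard libraries their sums were 450, 108 and 193 FPKM, the same order, but Myh11, given above, makes up much of each sum. Of the 5 markers tested, 3 were highest and 1 was lowest in standard replicate 1. Only 2 had all inverse values below that replicate and above replicates 2 and 3. The 7 skeletal muscle markers summed to 75.9 to 122 FPKM in the inverse and to 183, 65.1 and 78.7 FPKM in the standard libraries. Their part in the contractile values was not tested.

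Targets of YAP, a transcriptional coactivator that responds to stiff substrates, were ordered so in part. Ccn2, a secreted matrix protein, had 976, 887 and 1362 FPKM in inverse and 2534, 402 and 737 FPKM in standard controls. Ankrd1 had 5.55, 6.28 and 5.45 FPKM in inverse and 33.5, 0.55 and 1.67 FPKM in standard controls. Ccn1, another target, stayed at 545 to 673 FPKM in all 6 libraries. Of 18 targets tested 11 were highest in standard replicate 1 and 3 were lowest there. Their median log2 difference was 0.04, with 0.23 without that replicate and -0.13 without replicate 2, and none was called. Igfbp2, an insulin-like growth factor binding protein outside this list, also ranged widely, with 381, 420 and 557 FPKM in inverse controls and 1347, 40.9 and 106 FPKM in standard controls.

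Genes of the cell cycle were ordered in the same way. Of 28 mitotic genes tested 27 were highest in standard replicate 1, as were 27 of 29 genes of DNA replication, beside 25.5% of all genes. Top2a, the topoisomerase of dividing cells, had 77.8, 81.7 and 45.0 FPKM in inverse and 107, 18.4 and 42.3 FPKM in standard controls. Ccnb1, the mitotic cyclin B1, had 29.2, 34.0 and 19.2 FPKM in inverse and 53.7, 3.73 and 15.2 FPKM in standard controls. Rrm2, a subunit of ribonucleotide reductase, had 62.3, 61.3 and 36.6 FPKM against 161, 6.41 and 26.4 FPKM. The inverse libraries thus lay between standard replicates 1 and 2 in Top2a, Ccnb1 and Rrm2. Inverse replicate 3 was the lowest of its set in each. All inverse values lay between those standard replicates in 27 of 28 mitotic and 27 of 29 DNA replication genes, beside 40.4% of all genes. None of these genes was called, with or without standard replicate 1, and the median log2 difference was 0.57 for mitosis and 0.28 for DNA replication. Without that replicate these medians were 1.21 and 0.92, and without standard replicate 2 they turned to -0.09 and -0.20.

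Many inflammatory genes had the opposite order, with 16 of 22 lowest and 2 highest in standard replicate 1. The list of cytokines and chemokines was lowest in standard replicate 1, at a mean of -1.36 log2 units from the average of the 6 libraries, and highest in replicate 2, at 1.52. The inverse libraries spanned only -0.25 to 0.04. Il6, a cytokine of inflammatory fibroblasts, had 26.6, 31.8 and 21.95 FPKM in inverse and 6.56, 127 and 31.0 FPKM in standard controls. Cxcl12, the chemokine that retains leukocytes in the stroma, had 123, 141 and 168 FPKM in inverse and 61.1, 350 and 280 FPKM in standard controls. Saa3, an acute-phase protein, had 17.3, 29.2 and 21.5 FPKM against 1.502, 532 and 52.7 FPKM. With all libraries 0 of 22 members were called, at a median log2 difference of -0.30 that was -1.02 without standard replicate 1 and turned to 0.42 without replicate 2. Cxcl12 was called without standard replicate 1, lower in inverse PSC by 1.13 log2 units (adjusted p = 0.043, limma).

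Ptx3, a secreted pattern recognition protein, was the 1 of 22 members whose groups did not overlap, a share near the 4.65% of all genes. It had 627, 731 and 565 FPKM in inverse controls and 416, 397 and 403 FPKM in standard controls. Here the standard values lay close together, and the log2 difference was 0.65 (0.31 to 1.00). It did not pass the adjustment with all libraries, nor without standard replicate 1 (adjusted p = 0.0678, limma).

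Of the complement genes 14 of 15 tested were highest in standard replicate 2, as were all 10 macrophage markers tested. C3, the central complement protein, had 661, 593 and 620 FPKM in inverse and 253, 2426 and 944 FPKM in standard controls. C1qa, a complement subunit made mainly by macrophages, had 2.96, 3.65 and 4.48 FPKM against 3.30, 50.7 and 5.40 FPKM. The 12 macrophage markers summed to 83.3 to 96.4 FPKM in the inverse libraries, and to 53.8, 629 and 83.5 FPKM in the standard libraries. None of the 12 was at 0 in all libraries. Ptprc (CD45) was at 0.35 to 0.42 FPKM in inverse controls and at 0.18, 5.09 and 0.44 FPKM in standard controls. All 10 macrophage markers tested had a negative log2 difference, with a median of -0.67 that was -1.36 without standard replicate 1 and turned to 0.26 without replicate 2, and none was called. For the 15 complement genes tested these medians were -0.33, -1.08 and 0.38, with none called. Their part in the inflammatory values of standard replicate 2 was not tested.

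Immediate early genes, which respond within minutes to serum or handling, were lowest in standard replicate 1. Fos had 382, 305 and 274 FPKM in inverse and 8.82, 551 and 345 FPKM in standard controls. Nr4a1, an orphan nuclear receptor, had 201, 200 and 202 FPKM in inverse and 19.4, 597 and 240 FPKM in standard controls. Egr1, a zinc finger factor, had 157, 130 and 150 FPKM against 11.1, 302 and 174 FPKM. For these 3 genes the inverse values were close to each other, and all lay above standard replicate 1 and below replicate 2. Their log2 differences were 1.39, 0.51 and 0.78 with all libraries, and turned to -0.46, -0.91 and -0.66 without standard replicate 1. Of 25 members 16 were lowest in standard replicate 1, beside 40.3% of all genes, none was called, and the median log2 difference was 0.06, with -0.26 without that replicate and 0.26 without replicate 2. Interferon-stimulated genes had 17 of 22 members lowest there, with a median of -0.14 that was -0.74 without it and 0.21 without replicate 2, and none was called.

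**Figure D3:**
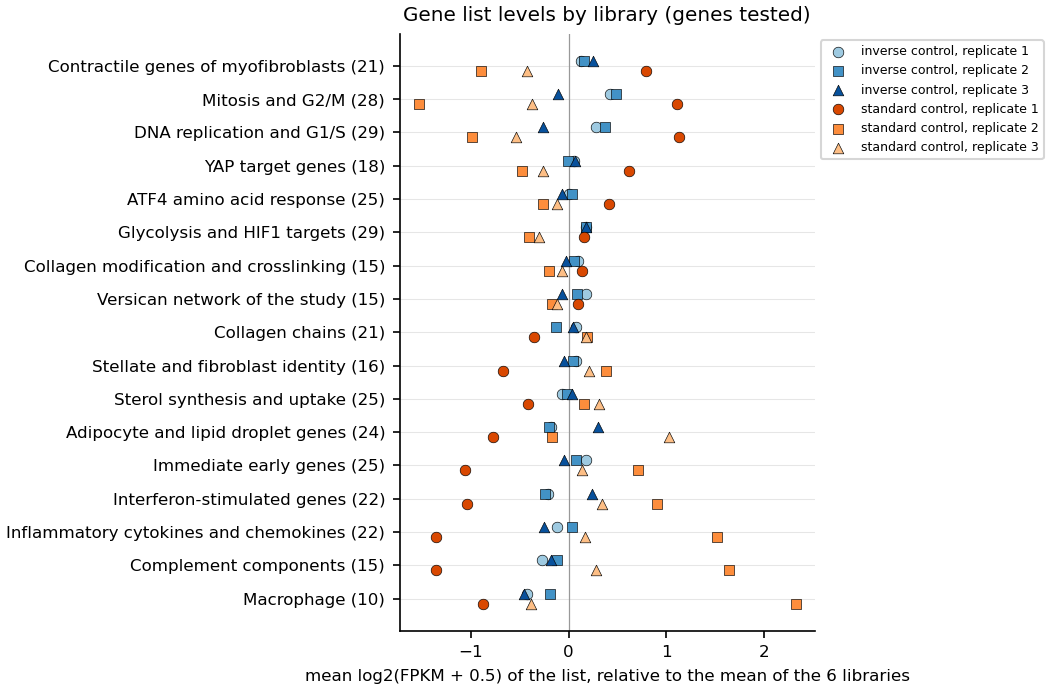
Mean log2(FPKM + 0.5) of each gene list in each library, relative to the mean of the 6 control libraries at 24 h, with the number of genes tested in brackets. Inverse libraries (blue) cluster near 0, whereas standard replicate 1 (dark orange circle) and replicate 2 (square) lie at opposite ends for contractile, mitotic, inflammatory and complement genes.

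Matrix genes differed in how far the standard libraries were apart. Col3a1, a fibrillar collagen chain, had 8526, 8591 and 7699 FPKM in inverse and 2790, 14618 and 11546 FPKM in standard controls. Bgn (biglycan), a small proteoglycan, had 4719, 4280 and 5088 FPKM against 4716, 4352 and 4707 FPKM, and so hardly varied in either set. The 21 collagen chains tested had a median log2 difference of 0.05 and none was called. Without standard replicate 1 that median was -0.20. The enzymes that modify and crosslink collagen had 4 of 15 members without overlap, all higher in inverse PSC, beside 4.65% of all genes, among them the prolyl hydroxylase P4ha2 with 233, 232 and 231 FPKM against 205, 162 and 168 FPKM. Dpt, Lum and Ogn, small matrix proteins that bind collagen, were called without standard replicate 1, lower in inverse PSC, and are named for that. In that fit 0.455% of all genes were called. Among the matrix lists it called 0 of 21 collagen chains, 0 of 15 modifying enzymes and 1 of 21 proteases and inhibitors. Dpt had 118, 138 and 108 FPKM in inverse and 29.9, 326 and 229 FPKM in standard controls. The protease Adamts15 had 68.6, 58.1 and 61.5 FPKM in inverse and 1.84, 173 and 121 FPKM in standard controls, and its log2 difference changed sign from 0.78 with all libraries to -1.20 without standard replicate 1 (adjusted p = 0.043, limma).

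The versican network and the genes that the study measured by qPCR were read out as well. The study chose these lists on samples of this series, so they are no independent evidence. Vcan (versican), a large chondroitin sulfate proteoglycan, had 36.7, 33.2 and 22.2 FPKM in inverse and 24.3, 34.9 and 32.4 FPKM in standard controls. The groups overlapped and the log2 difference was -0.01 (-0.56 to 0.54). Chst11, which sulfates chondroitin, had 8.19, 8.22 and 5.64 FPKM against 8.03, 8.75 and 9.12 FPKM. Fn1 (fibronectin) had 3054, 1935 and 2638 FPKM against 1955, 3633 and 3075 FPKM, and Sdc4, a heparan sulfate proteoglycan of the cell surface, had 186, 192 and 183 FPKM against 170, 194 and 131 FPKM. Timp1, an inhibitor of matrix proteases, ranged from 199 to 344 FPKM in inverse and from 216 to 470 FPKM in standard controls. The reference genes B2m and Rpl37a had log2 differences of -0.28 ± 0.23 and 0.13 ± 0.16 (SE), and their groups overlapped. None of the 7 qPCR genes was called. Of the 15 network genes 1 had no overlap, a share near the 4.65% of all genes, and this was the proteoglycan Sdc1, with 199, 231 and 170 FPKM against 151, 138 and 140 FPKM and a log2 difference of 0.47 ± 0.14 (SE).

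Of the 41 tested genes that the study named for their response to co-culture, none was called with all libraries. Their median log2 difference was 0.07, with 0.15 without standard replicate 2 and 0.13 without replicate 3. Ndufa4l2 and Ptx3 are on this list and are described above. Cys1 had 8.60, 9.88 and 11.9 FPKM in inverse and 4.88, 6.99 and 7.27 FPKM in standard controls. Frzb, a secreted Wnt antagonist, had 11.7, 12.5 and 11.2 FPKM against 4.09, 9.79 and 8.70 FPKM. In these 4 genes, Ndufa4l2, Ptx3, Cys1 and Frzb, all mono-cultured inverse libraries were above all mono-cultured standard libraries, as in 4.65% of all genes, and the glucose transporter Slc2a3 was the 1 gene on the list with the reverse.

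By the rule that takes the smallest p on each side, the other genes higher in inverse controls were Psmd10, Oxtr, Tubb3, Lsm5 and Hoxb7, beside Ndufa4l2, Pdk1 and Ptx3, none of them past the adjustment with all libraries. Psmd10 (ENSMUSG00000031429, chrX:140948429-140956728, minus strand), an assembly chaperone of the proteasome, had 3.65, 6.09 and 6.74 FPKM in inverse and 0.62, 0.73 and 0.55 FPKM in standard controls. It passed the filter on low values only through the inverse group, as did 4 of the 58 genes called without standard replicate 1, so its rank by p is no finding. In the co-cultured libraries at 24 h its values were 1.44, 0.56 and 0.26 FPKM in the inverse and 0.34, 0.61 and 11.3 FPKM in the standard model, so that 1 standard library held the highest of these 12 values. Oxtr, the oxytocin receptor of contractile cells, had 13.6, 13.7 and 14.6 FPKM in inverse and 7.51, 4.46 and 7.33 FPKM in standard controls, a log2 difference of 1.09 (0.57 to 1.62). Tubb3, a beta-tubulin, had 72.2, 77.6 and 75.04 FPKM against 50.5, 44.6 and 54.5 FPKM. Hoxb7, a homeobox factor, had 22.4, 25.6 and 22.5 FPKM against 16.95, 15.7 and 15.7 FPKM. In Oxtr and Hoxb7 standard replicate 1 was the standard library nearest to the inverse values, and in Tubb3 it lay between the other two.

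Some further genes called without standard replicate 1 show both of its positions, and are named here after their values were seen. Tgfb3, a growth factor that drives myofibroblast activation, had 52.8, 46.4 and 54.8 FPKM in inverse and 135, 28.0 and 29.0 FPKM in standard controls. Plaur, the urokinase receptor, had 40.4, 48.8 and 35.6 FPKM against 121, 20.52 and 20.7 FPKM. In both, the replicate left out lay above the inverse libraries and the other standard libraries lay below. Gucy1b1, a subunit of the nitric oxide receptor, had 8.36, 7.93 and 6.47 FPKM against 3.47, 19.5 and 15.4 FPKM, the opposite order. Fam162a, a hypoxia-inducible mitochondrial protein, had 111, 99.8 and 85.0 FPKM against 77.1, 53.2 and 49.2 FPKM, with all standard libraries below all inverse ones.

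On the other side Atp1b1, Plagl1, Raph1, Fmc1, Pik3r2, Cadm4, Alcam and Sema7a had the smallest p, again without passing with all libraries. Atp1b1 (ENSMUSG00000026576, chr1:164437109-164458355, minus strand), the beta subunit of the sodium pump, had 10.2, 9.24 and 9.83 FPKM in inverse and 14.8, 22.4 and 18.7 FPKM in standard controls. Its log2 difference was -0.88 (-1.31 to -0.45), and -1.03 without standard replicate 1 (adjusted p = 0.043, limma). Plagl1, an imprinted zinc finger factor, had 6.02, 4.69 and 5.54 FPKM against 8.39, 11.97 and 10.5 FPKM. Alcam, a cell adhesion molecule, had 7.34, 6.55 and 5.48 FPKM against 9.34, 11.4 and 9.79 FPKM.

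**Figure D4:**
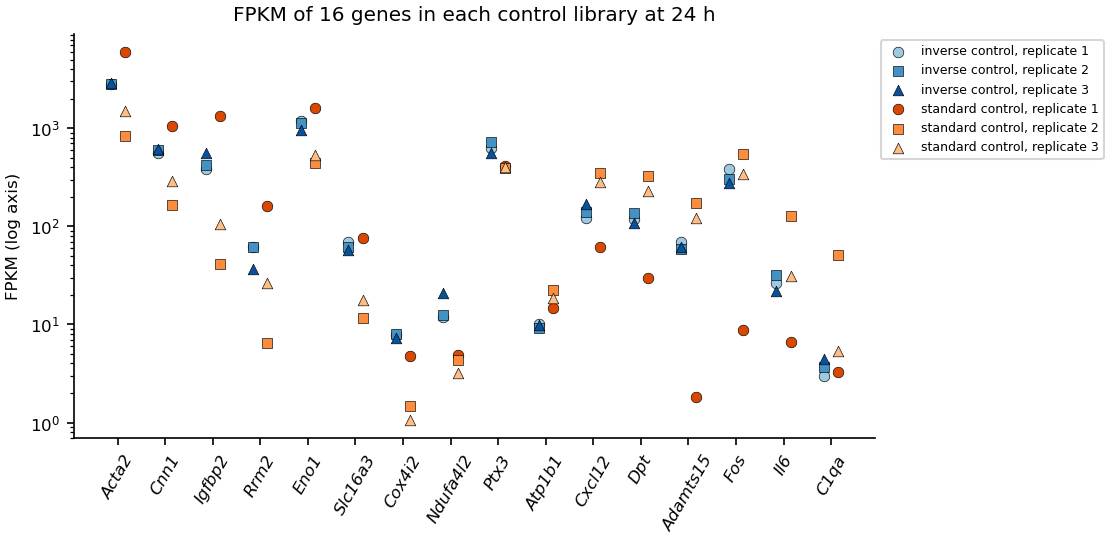
FPKM on a log axis of 16 genes in each control library at 24 h, with inverse libraries in blue on the left and standard libraries in orange on the right of each gene. Ndufa4l2, Cox4i2, Ptx3 and Atp1b1 have separate groups, while for Acta2, Cnn1, Igfbp2, Adamts15 and Fos the 3 inverse values fall inside a wide standard range.

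In lipid genes standard replicates 1 and 3 lay at opposite ends. Adipocyte and lipid droplet genes had a mean of 1.03 log2 units above the average of the 6 libraries in that replicate, and of -0.78 in replicate 1, which was the lowest library in 18 of 24. For sterol genes these means were 0.31 and -0.42, with replicate 1 lowest in 19 of 25, and for fatty acid genes 0.63 and -0.44. Plin1, a lipid droplet coat protein, had 54.7, 51.2 and 84.5 FPKM in inverse and 22.6, 43.1 and 124 FPKM in standard controls. Adipoq (adiponectin), a hormone of fat cells, had 21.5, 19.3 and 31.8 FPKM against 9.47, 30.1 and 81.8 FPKM. None of the 24 genes tested was called, and neither was any of the 25 sterol or the 18 fatty acid synthesis genes, whose median log2 differences were -0.05 and -0.13. Without standard replicate 1 the medians were -0.43, -0.27 and -0.26 for the adipocyte, sterol and fatty acid genes, against -0.02 for the adipocyte genes with all libraries. Without standard replicate 3 the medians of these lists all turned positive, to 0.48, 0.079 and 0.062 in the same order. The adipocyte median was -0.19 without standard replicate 2. Of the 13 vitamin A genes tested, Rara, a retinoic acid receptor, and Crabp1, a retinoic acid carrier, did not overlap with inverse higher, beside 4.65% of all genes. The list's median was 0.19, and 0.00 without standard replicate 1. Rara had 30.8, 30.3 and 30.4 FPKM in inverse and 25.3, 21.2 and 26.7 FPKM in standard controls.

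**Figure D5:**
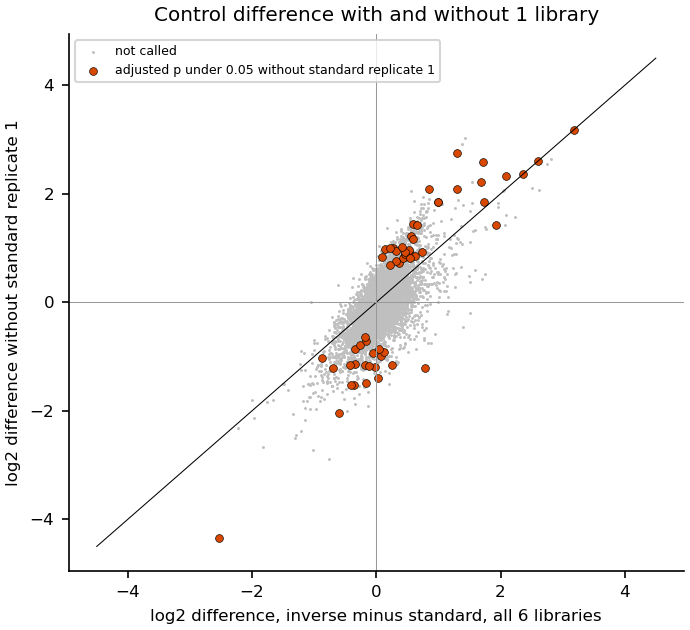
Log2 difference of each gene, inverse minus standard control PSC at 24 h, with all 6 libraries (horizontal) against the fit without standard replicate 1 (vertical), with the 58 genes called in the latter in orange. Many called genes lie near 0 on the horizontal axis, and Adamts15 and a few others change sign.

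The same contrast was read in libraries that the 24 h controls do not share. Between control PSC at 72 h 0 of 13106 genes (0%) were called by limma, with 810 at an unadjusted p under 0.05, and the smallest adjusted p was 0.111. The difference between the 72 h and the 24 h contrast was called for 0 of 13817 genes (0%), with 389 at an unadjusted p under 0.05. With replicate numbers as a block within each model, a fit added after the data were seen because standard libraries of 1 number deviated together, limma again called 0 genes, with 1298 at an unadjusted p under 0.05. Between inverse and standard co-cultured PSC at 24 h 0 of 12772 genes (0%) were called, with 499 at an unadjusted p under 0.05. Ndufa4l2 differed by 1.74 between controls at 24 h, by 0.43 ± 0.52 (SE) between controls at 72 h and by 2.60 ± 0.96 (SE) between co-cultured PSC at 24 h, all on the log2 scale. For Cox4i2 these differences were 1.68, 0.25 ± 0.63 (SE) and 2.02 ± 0.75 (SE), and for Atp1b1 they were -0.88, -0.48 and -1.05. Of the 16 genes with the smallest p, 15 were tested at 72 h, where 10 had the same sign and 5 the other (Ptx3, Lsm5, Plagl1, Pik3r2 and Alcam). Plagl1 differed by -0.86 at 24 h and by 0.94 (0.54 to 1.33) at 72 h, where it had 17.6, 19.7 and 21.6 FPKM in inverse and 8.54, 11.96 and 9.77 FPKM in standard controls. The adjusted p of that difference between times was 0.246 by limma, and 0.111 with replicate numbers as a block within each model. Lsm5, a subunit of an RNA-binding complex, differed by 1.93 at 24 h and by -2.22 (-3.47 to -0.97) at 72 h, with an adjusted p by limma of 0.507 for the difference between times, and 0.193 with that block. Ptx3 differed by 0.65 at 24 h and by -0.02 (-0.33 to 0.30) at 72 h. The co-cultured Ndufa4l2 values were 20.45, 14.5 and 210 FPKM in the inverse and 6.09, 11.03 and 3.44 FPKM in the standard model, so that 1 inverse library was far above the rest. It was so for Cox4i2 too, with 5.87, 7.41 and 34.8 FPKM in the inverse and 6.41, 1.41 and 1.54 FPKM in the standard model.

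Of the 225 genes with an unadjusted p under 0.05 in the controls, 200 were tested between co-cultured PSC at 24 h and 154 of them (77.0%) had the same sign, beside 63.3% of all genes. At 72 h 138 of 206 (67.0%) had the same sign, beside 53.2% of all genes. Of the 58 genes called without standard control replicate 1, 57 were tested in each of the other contrasts with all libraries, where 45 had the same sign between co-cultured PSC and 13 between controls at 72 h. When replicate 1 of the standard model was left out of both contrasts, 53 of 54 of the genes called without it had the same sign between co-cultured PSC, beside 72.5% of all genes. In control PSC at 72 h this held for 46 of 55, beside 54.7% of all genes. These libraries are not independent of the 24 h controls in 1 respect: deviations from the group mean correlated over genes at 0.82, 0.76 and 0.55 between standard control and standard co-cultured libraries of the same replicate number, and at 0.76, 0.67 and 0.48 between standard controls at 24 h and 72 h. The contractile list stood at 0.79 in standard control replicate 1 at 24 h, at 0.24 in its co-cultured counterpart and at 0.85 at 72 h, against -0.90, -1.18 and -1.29 for replicate 2.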

How the data were processed

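RNA of 24 PSC libraries was sequenced, and the 6 control libraries at 24 h were compared here. The authors aligned reads with HISAT2 2.0.5 to GRCm38, counted them with featureCounts 1.5.0-p3 and deposited FPKM values per gene, per the labels and the study's methods (CASAVA and DESeq2 1.20.0 are also listed). The annotation release is not given in the sources used here, and gene names, positions and lengths were taken from GENCODE M21. Of 53801 listed genes 53706 matched. FPKM times mean transcript length gave whole fragments, within 0.02, for 95.6 to 96.5% of values up to 20 fragments per library, which gave the depths. FPKM are not counts, so log2(FPKM + 0.5) was tested with limma 3.58.1 (R 4.3.3) with an intensity trend, in genes above 1 FPKM in at least 3 libraries, two-sided, with Benjamini-Hochberg adjustment over all genes tested. A fold on this scale understates changes of low genes. The test was also run on simulated data, and no result given here rests on that. The study calls the 3 replicates of a group biological replicates but does not say whether each is a separate isolation, so p-values measure the spread between these samples. The 30 gene lists and 12 marker lists, and the genes named, were chosen with earlier results of these data known. Named were the 8 genes with the smallest p in each direction with a mean of at least 5 FPKM in the higher group, leaving out predicted genes and pseudogenes, since none passed, the qPCR and stained genes, and up to 4 members of each list. Other genes, among them list members shown for the spread of the standard libraries and genes called without standard replicate 1, were named after their values were seen. Alternatives were other pseudocounts, filters, scalings, weights, designs, adjusted p limits and left-out libraries. Promoter sequences are RefSeq's, and figures were drawn with matplotlib 3.10.9.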

Additional observations from a re-analysis of the deposited data

How the results depend on the processing

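The count of 0 genes called between control PSC at 24 h stayed 0 with a pseudocount of 1 or 0.1, no filter, a mean FPKM above 5, median-ratio scaling, quantile normalization, all 24 libraries in 1 model, voom, and an adjusted p limit of 0.01. It was 2 without the intensity trend, 1 at an adjusted p limit of 0.5, and 2695 with array weights, whose estimate did not converge and gave most weight to standard replicate 3. Leaving out 1 library in turn gave 0 to 58, with 58 only without standard replicate 1, and the cause was not tested. At 72 h the count was 3 with all 24 libraries, 1 with array weights, 2 without the trend, 1 at a limit of 0.5 and 0 to 3 with 1 library left out. The difference between times gave 1 with all 24 libraries, 179 with array weights, 2 at a limit of 0.5 and 0 to 1 with 1 library left out. Co-cultured PSC at 24 h gave 4181 with array weights and 1 without the trend. The weights did not converge for the last 2 comparisons either. Same-numbered inverse and standard controls deviated with correlations of 0.06, -0.04 and 0.09. The labels do not say whether a number pairs samples of both models. These values cannot decide it, since same-numbered inverse controls hardly deviated together across times either. With the replicate number as a block 0 genes were called in each of the 4 comparisons. Same-numbered standard controls at 24 h and 72 h correlated at 0.76, 0.67 and 0.48, and inverse ones at -0.026, 0.0026 and 0.15. A block within each model, added after the data were seen, also gave 0 for the difference between times.

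Of the 26 genes with the smallest p or that the study stained or measured by qPCR, 20 kept their sign in every setting. With 1 library left out, the log2 difference of Vcan ran from -0.16 (without standard replicate 1) to 0.20 (without inverse replicate 3), and was 0.09 and 0.04 without standard replicates 2 and 3. Timp1 ran from -0.44 to 0.12 (without standard replicate 1), with 0.10 without inverse replicate 3, and was 0.43 with array weights. Fn1 ran from -0.42 to 0.027 (without standard replicate 2), with 0.022 without inverse replicate 2. Acta2 ran from -0.075 to 1.35 and Vim from -0.14 to 0.51, the lowest without standard replicate 2 and the highest without standard replicate 1. Des ran from -0.23 to 0.039 (without standard replicate 1), with 0.024 without inverse replicate 1. Of 30 list medians, 6 moved by more than the spread between replicates in some setting. The causes were not tested. The 95% interval of a gene's difference reached, in the median, 0.526 log2 units to either side of it.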

Other observations

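Short and non-coding genes were more frequent among the genes at an unadjusted p under 0.05 than among all genes tested. Small RNA genes made up 23 of the 225 (10.2%) against 172 of 12903 (1.33%), and pseudogenes 35 (15.6%) against 648 (5.02%). Of the 225 genes 27 passed the filter on low values only through the group where they are high, Gm8034 and Mir343 among them, as did 42 of all genes tested. They include 9 of the 23 small RNA genes and 7 of the 35 pseudogenes, so these counts are no evidence on either class. The median transcript length was 978 bases for the 162 genes higher in inverse controls and 1070 bases for the 63 lower genes, against 1665 bases over all genes tested. The smallest p belonged to Gm8034, a predicted gene singled out after its values were seen, with 2.85, 4.58 and 4.92 FPKM in inverse controls and listed at 0 in the 3 standard libraries.

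Xist, the RNA of the inactive X chromosome, had 45.9, 49.0 and 39.8 FPKM in inverse and 27.1, 83.7 and 80.0 FPKM in standard controls, and was called without standard replicate 1 at a log2 difference of -0.86 (adjusted p = 0.043, limma). Ddx3y, a Y-linked helicase, ranged from 12.1 to 13.2 FPKM in inverse controls and from 11.2 to 16.4 FPKM in standard controls, with replicate 1 the lowest, so that the standard libraries that were high in Xist were also high in this Y-linked gene.

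Genes of the amino acid response through the factor ATF4 had 17 of 25 members highest in standard replicate 1. Phgdh, the first enzyme of serine synthesis, had 132, 146 and 110 FPKM in inverse and 320, 72.1 and 96.7 FPKM in standard controls. None of the 25 was called and the median log2 difference was 0.00, with 0.20 without that replicate and -0.085 without replicate 2. Selenoproteins had 15 of 17 members with a positive difference, a median of 0.20 and none called. Without standard replicate 2 their median was 0.075, beside 0.06 over all genes with all libraries.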
